A study of Mus musculus with 28 samples.

Results

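The V-ATPase is the rotary proton pump that acidifies lysosomes, endosomes and synaptic vesicles. 10 of its subunit genes were followed here, chosen by symbol as the rows of the deposited raw count table named Atp6v0a1, Atp6v0b, Atp6v0c, Atp6v0d1, Atp6v1a, Atp6v1b2, Atp6v1c1, Atp6v1d, Atp6v1e1 and Atp6v1h. They are 10 of the 25900 genes in the table, and all 10 passed the filter on low counts. The RNA came from frontal cortex of C57BL/6 mice aged 20 months. The mice carried the Q331K substitution of TDP-43, a protein that binds RNA and is encoded by Tardbp, as a knock-in, in which the mouse's own gene bears the change rather than an added transgene. There were 8 wild-type libraries (WT, +/+), 10 from mice with 1 mutant allele and 1 normal allele (HET) and 10 from mice in which both alleles were mutant (HOM). No allele or agent beyond Q331K is given, and whether the mutant mice descend from 1 founder is not given in the sources used here. Since no label ties a library to an animal, p-values measure only library-to-library spread.

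The pump has a membrane sector, V0, which carries protons, and a cytosolic sector, V1, which hydrolyses ATP and turns the central rotor. In neurons its proton gradient drives the loading of neurotransmitter into synaptic vesicles, and in lysosomes it gives the acid pH at which hydrolases work. The sectors come apart and reassemble reversibly, and the pump also serves as a docking partner of the Ragulator and Rag GTPase complex that recruits the growth kinase mTORC1 to lysosomes.

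Several lysosomal genes carry in their promoters a short element built on the core CACGTG, which is read by the transcription factor TFEB, and in its full form, the CLEAR element, TCACGTGA has a G before it and a C after it. RefSeq promoter windows on GRCm38.p6, from 250 bases before to 50 bases after the start, matched 7 of the 10 genes, with 9 windows in all. CACGTG, which reads the same on both strands, was found in 3 of these 7 genes. It was in 3 of the 9 windows, against 7.15% of 32851 windows of all genes. Among the pump's other subunit genes it was in 1 of 12 genes with a window, Atp6v0e, and in 1 of 15 windows. The 3 windows from the 10 genes are shown because they hold CACGTG and because they include that of the only gene of the 10 whose transcript passed the test below. All 3 lie on the minus strand and are printed 5′ to 3′ in the direction of transcription. Atp6v0b is at chr4:117887280-117887579, Atp6v0d1 at chr8:105566015-105566314 and Atp6v1a at chr16:44139210-44139509. Capitals mark CACGTG together with the adjoining letters that match the CLEAR element.
Atp6v0b: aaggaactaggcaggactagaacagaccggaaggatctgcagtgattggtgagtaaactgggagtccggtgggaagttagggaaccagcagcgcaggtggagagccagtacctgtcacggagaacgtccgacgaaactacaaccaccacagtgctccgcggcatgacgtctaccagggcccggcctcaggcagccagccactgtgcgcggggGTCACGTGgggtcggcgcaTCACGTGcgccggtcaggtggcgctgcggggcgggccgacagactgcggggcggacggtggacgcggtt
Atp6v0d1: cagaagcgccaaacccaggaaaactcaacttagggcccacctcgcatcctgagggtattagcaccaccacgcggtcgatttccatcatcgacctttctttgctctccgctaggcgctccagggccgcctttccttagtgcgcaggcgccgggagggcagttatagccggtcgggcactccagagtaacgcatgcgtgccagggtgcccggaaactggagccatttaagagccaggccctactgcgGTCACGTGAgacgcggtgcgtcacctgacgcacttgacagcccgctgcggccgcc
Atp6v1a: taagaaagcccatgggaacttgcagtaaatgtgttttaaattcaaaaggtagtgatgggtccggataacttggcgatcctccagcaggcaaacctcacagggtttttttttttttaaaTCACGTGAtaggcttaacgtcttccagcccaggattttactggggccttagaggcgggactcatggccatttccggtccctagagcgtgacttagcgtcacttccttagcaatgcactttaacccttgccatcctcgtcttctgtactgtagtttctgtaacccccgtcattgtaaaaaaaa

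The Atp6v0b window held 2 copies of CACGTG, starting at positions -36 and -18 from the start of transcription. In Atp6v0d1 the copy began at position -3 and in Atp6v1a at -131. These positions count from the RefSeq start of each window. The deposited gene coordinates put the 5′ end of Atp6v1a at 44139705, upstream of its window, so that window lies inside the gene so defined. The longer form TCACGTG, searched on both strands, was in the same 3 of the 9 windows, against 3.77% of all windows. TCACGTGA was in 2 of the 9, those of Atp6v0d1 and Atp6v1a, against 0.974%. The full CLEAR element was in none of the 9 windows and in 0.326% of all windows. Each longer form contains the shorter ones, so these counts are not separate. GGGCGG, on either strand, was in 5 of the 7 genes and in 7 of the 9 windows, against 35.7% of all windows. CCAAT was in 2 of the 7 genes and in 2 of the 9 windows, against 37.4%. These matches describe the letters only.

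Library totals ran from 30.5 to 74.9 M counts, and the shallowest were HOM 2 at 30.5 M and HOM 1 at 32.8 M. Raw counts of the 10 genes ran from 4688 to 52954 per library. Markers of frontal cortex excitatory neurons were present in every library, with a summed level of 6020 to 7210 CPM (reads scaled to a common library size), and no listed neuron marker was at 0. Of all 16110 genes tested, 629 rose and 597 fell in HOM against WT.

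Compared per kilobase of merged exon, the WT levels of the 10 genes spanned from 132 ± 4.04 to 16.4 ± 0.343 CPM per kb (SD, n = 8). Atp6v1b2, the brain form of the B subunit, which completes the catalytic ring, was the highest at 132 CPM per kb. Next came Atp6v0d1, a part of the central stalk, at 112 ± 4.82, and Atp6v0c, the proteolipid that makes up most of the proton-carrying ring, at 110 ± 3.72, and the ranges of these 2 genes overlapped. Atp6v1a, the catalytic A subunit, stood at 83.9 ± 3.66 and Atp6v1e1, a stator subunit, at 83.6 ± 3, again overlapping. Atp6v0b, the second kind of proteolipid in the ring, stood at 74.8 ± 1.93 and Atp6v0a1, the large subunit a that lines the proton path, at 70.6 ± 1.99, with overlapping ranges although Atp6v0b was the higher of the pair in all 8 libraries. Atp6v1c1, a subunit that links V1 to the stator and takes part in reversible assembly, stood at 44.7 ± 1.25 and Atp6v1d, the rotor shaft, at 43.8 ± 1.38, also overlapping. Atp6v1h, a regulatory subunit at the interface of the sectors, was the lowest at 16.4 CPM per kb. The order depends on the length used: over the longest transcript, Atp6v1b2 and Atp6v1h kept the ends at 249 and 33 CPM per kb, while Atp6v0b came second at 153.

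Several subunits are encoded by alternative genes, most of which serve specialised epithelia, bone or other tissues. Per kilobase, Atp6v0a1 gave 86.7% ± 0.593 (SD, n = 8) of the transcript of subunit a in WT, the broadly expressed Atp6v0a2 gave 8.57% ± 0.407, Tcirg1, the osteoclast a3 form, 3.64% ± 0.186 and Atp6v0a4, the renal form, 1.13% ± 0.154. Exons of Atp6v0a4, at 4.59 CPM in WT, share 259 of 4973 bases with D630045J12Rik on the same strand, which stood at 90.3 CPM. Whether the Atp6v0a4 counts hold reads of that gene was not tested. In HOM the share of Atp6v0a1 was 86.1% ± 0.411 (SD, n = 10). Atp6v1c1 gave 99.6% ± 0.212 of the transcript of subunit C. The alternatives to Atp6v1b2, Atp6v0d1 and Atp6v1e1 were close to absent: over all 28 libraries Atp6v1b1, the renal B form, had 4 reads, Atp6v0d2 had 29 and Atp6v1e2 had 13. Subunit G was shared, with 71.7% ± 0.995 from the neuronal Atp6v1g2 and 28.3% from Atp6v1g1. Atp6v1g3 had no read in any library, which allows up to 0.00199 CPM over the 28 libraries together (3 counts, counting error only).

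**Figure D1:**
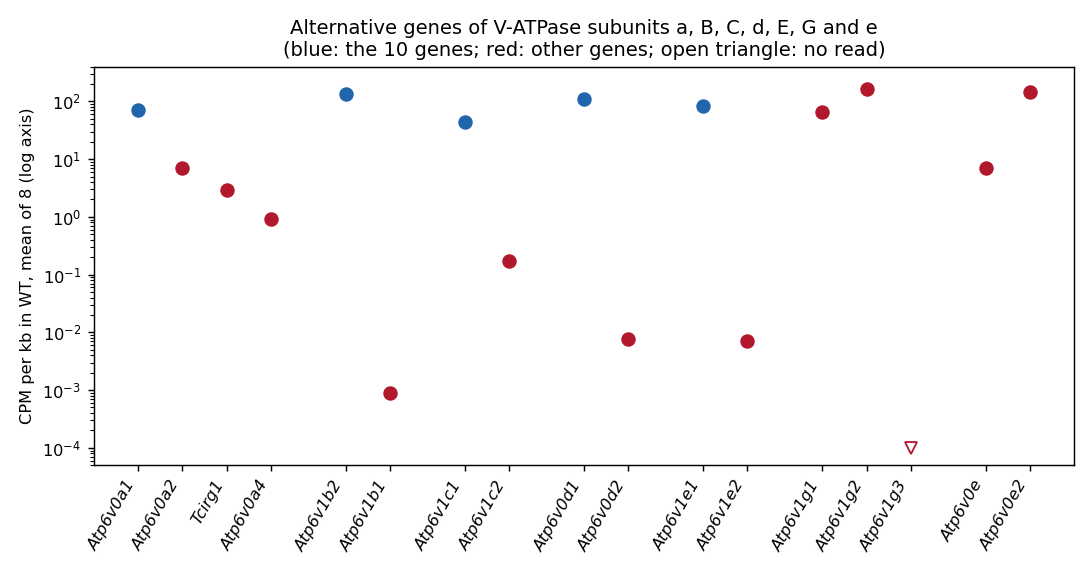
Mean WT level (8 libraries) of alternative subunit genes in CPM per kb of merged exon, on a log axis, grouped by subunit; blue points are genes among the 10 and red points are other genes. For subunits a, B, C, d and E the gene among the 10 is the highest of its group, from Atp6v1b2 at 132 to Atp6v1c1 at 44.7 CPM per kb, and the open triangle marks Atp6v1g3, which had no read.

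The question of the HOM and WT comparison is whether 2 copies of the mutant allele go with other pump transcript levels. Atp6v0b rose in HOM, by 8.48%, and it alone among the 10 genes passed the test. The 6 V1 genes among the 10 all had lower means in HOM, by 2.33% to 4.77%, and none of them passed. Of the V0 genes other than Atp6v0b, Atp6v0a1 was 0.937% above WT, and Atp6v0c and Atp6v0d1 were 2.43% and 0.856% below, none passing. With edgeR's quasi-likelihood test and Benjamini-Hochberg adjustment over all genes, 1 of the 10 was higher and 0 were lower, where 7.61% of all genes were called, 3.9% higher and 3.71% lower. At an unadjusted p under 0.05 there were 5 of the 10, where 24.6% of all genes lay. The median log2 fold change of the 10 was -0.046, and that of all genes tested was 0.005. For none of the 10 were the HOM and WT libraries fully apart, as they were for 0.459% of all genes. In bulk tissue, fewer cells of a type and less RNA per cell cannot be told apart.

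Atp6v0b lay between 148 and 160 CPM in WT with a median of 154, between 149 and 174 in HET with a median of 160, and between 155 and 192 in HOM with a median of 166. All 10 HOM libraries were above the WT mean and 8 were above the highest WT library, while the lowest HOM libraries lay inside the WT range, so the groups overlapped. On the log2 scale the difference was 0.12 (SE 0.032, adjusted p = 0.0251 by edgeR), with means of 153 ± 3.95 (SD, n = 8) in WT and 166 ± 10 (SD, n = 10) in HOM. The highest HOM library, HOM 1, was one of the shallowest, and without it the log2 fold change was 0.091 (edgeR adjusted p = 0.0354). The call was lost without WT 6 (0.11, edgeR adjusted p = 0.0585) and without HOM 1 and HOM 2 together (0.088, edgeR adjusted p = 0.0535). An antisense gene, Gm12841, covers 243 of the 2051 exon bases of Atp6v0b on the other strand, and it stood at 0.5 CPM in WT and 0.524 in HOM.

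Markers of other cell types also passed in the same comparison, where 3.9% of all genes were called higher. Microglial markers passed as higher in HOM for 6 of 9 genes, with summed levels of 422 to 497 CPM in WT and 471 to 595 in HOM. Endothelial and mural markers passed as higher for 4 of 8, with sums of 299 to 330.7 in WT and 322 to 371 in HOM. Meningeal fibroblast markers passed as higher for 2 of 8 by edgeR (4 by DESeq2 and 0 by voom), with sums of 35.8 to 60.5 in WT and 44.4 to 129 in HOM, and astrocyte markers for 2 of 8, with sums of 5150 to 6110 and 5350 to 6237. Of the 10 neuron markers 0 passed by edgeR, DESeq2 or voom and 2 had an unadjusted edgeR p under 0.05, where 24.6% of all genes lay. Among them 8 had lower means in HOM, their median log2 fold change was -0.045, and their sums were 10100 to 10690 in WT and 9560 to 10710 in HOM. Oligodendrocyte, choroid plexus and striatal neuron markers had 0 calls by each of the 3 tools, and 1, 0 and 0 genes at an unadjusted edgeR p under 0.05. No marker of the microglial, vascular, meningeal, astrocyte or neuron lists was at 0 in all libraries. With the meningeal and the endothelial and mural marker levels as covariates, the log2 fold change of Atp6v0b was 0.14 with an edgeR adjusted p of 0.123. The part of microglia and astrocytes in the result was not tested.

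Among the V1 genes Atp6v1h was the nearest to the threshold. It lay between 155 and 164 CPM in WT with a median of 160, between 149 and 161 in HET with a median of 153, and between 139 and 161 in HOM with a median of 153. 8 of 10 HOM libraries and 6 of 10 HET libraries were below the lowest WT library, and the others lay inside the WT range. The log2 fold change in HOM was -0.066 (SE 0.023, edgeR adjusted p = 0.0791). DESeq2 and limma's voom placed it past the threshold, with adjusted p of 0.0384 and 0.0378. Exons of Atp6v1h overlap 127 bases of Rgs20 on the other strand, and Rgs20 stood at 33.1 CPM in WT and 35 in HOM.

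Atp6v1e1 lay between 325 and 358 CPM in WT with a median of 346, between 330 and 349 in HET with a median of 335, and between 301 and 358 in HOM with a median of 326. 4 of 10 HOM libraries were below the lowest WT library, and the highest HOM library, HOM 2, was level with the top of the WT range. In HOM its log2 fold change was -0.07 (SE 0.026, edgeR adjusted p = 0.0906), and voom called it at an adjusted p of 0.0395. The adjusted p by DESeq2 lay under the threshold but rounds to 0.05. Without the shallow HOM 1 and HOM 2 it was -0.094 with an edgeR adjusted p of 0.0182, the only call among the 10 genes in that fit. Its exons overlap 32 bases of Slc25a18 on the other strand.

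The remaining V1 genes among the 10 did not pass by edgeR, DESeq2 or voom. Atp6v1a lay between 472 and 534 CPM in WT with a median of 510 and between 425 and 516 in HOM with a median of 494. Atp6v1b2 lay between 674 and 728 in WT with a median of 702 and between 619 and 778 in HOM with a median of 686. The HOM range of Atp6v1b2 enclosed the WT range on both sides, and that of Atp6v1a reached further down. Their log2 fold changes in HOM were -0.056 (SE 0.033, edgeR adjusted p = 0.31) and -0.034 (SE 0.032, edgeR adjusted p = 0.54). For the rotor shaft gene Atp6v1d the WT libraries ran from 193 to 210 CPM and the HOM libraries from 180 to 207, with medians of 200 and 194. For Atp6v1c1 they ran from 242 to 257 in WT and from 205 to 258 in HOM, with medians of 253 and 242. The log2 fold changes were -0.058 for Atp6v1d (SE 0.026) and -0.068 for Atp6v1c1 (SE 0.03), with edgeR adjusted p of 0.162 and 0.157. For both genes 9 of 10 HOM libraries lay below the WT mean and 4 lay below the lowest WT library.

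The rest of the membrane sector did not pass. Atp6v0a1 lay between 449 and 491 CPM in WT and between 447 and 490 in HOM, and its log2 fold change had a 95% interval of -0.03 to 0.057 (edgeR adjusted p = 0.754). Atp6v0d1 lay between 192 and 214 in WT and between 188 and 213 in HOM, with an interval of -0.063 to 0.039 (edgeR adjusted p = 0.813). Atp6v0c lay between 349 and 394 in WT and between 332 and 455 in HOM, with an interval of -0.116 to 0.045 (edgeR adjusted p = 0.629). The HOM and WT ranges of Atp6v0a1 and Atp6v0d1 nearly coincided. For Atp6v0c, 4 of 10 HOM libraries were below the lowest WT library and 1, HOM 2, was far above the highest.

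**Figure D2:**
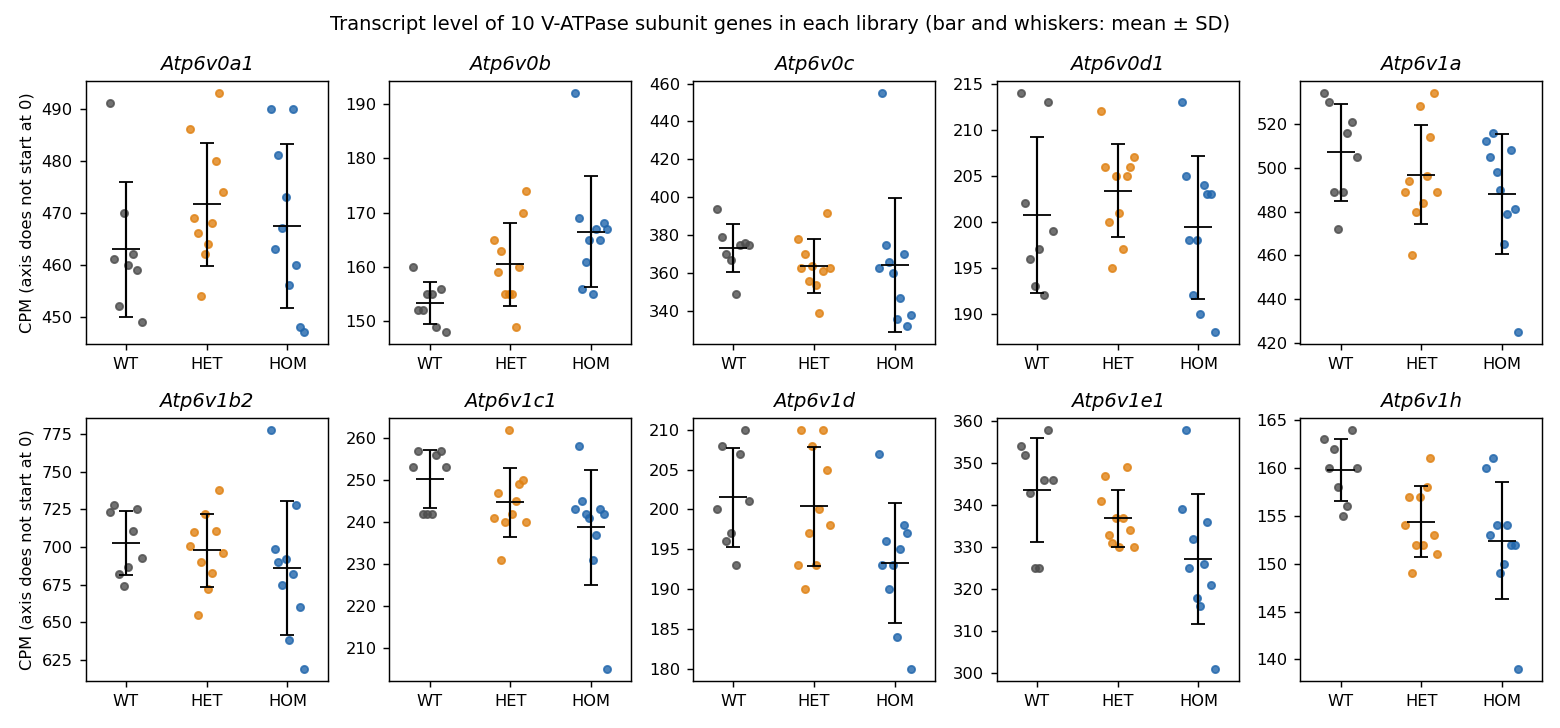
Level of each of the 10 genes in CPM (vertical axes do not start at 0) in 8 WT, 10 HET and 10 HOM libraries, 1 point per library, with the mean and SD in black. For Atp6v0b 8 of 10 HOM points lie above the highest WT point, for Atp6v1h 8 of 10 lie below the lowest, and for each of the other 8 genes at least 5 of 10 HOM points lie within the WT range.

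In HET against WT, 0 of the 10 genes were called by edgeR's quasi-likelihood test, DESeq2 or voom, and edgeR called 0% of all genes (DESeq2 12 genes, voom 14). At an unadjusted p under 0.05 in edgeR there were 2 of the 10, Atp6v0b and Atp6v1h, where 9.6% of all genes lay. The log2 fold change in HET was 0.066 for Atp6v0b (SE 0.032, edgeR adjusted p = 0.519) and -0.049 for Atp6v1h (SE 0.023, edgeR adjusted p = 0.519). The other 8 genes lay between -0.035 for Atp6v0c and 0.026 for Atp6v0a1, and the median of the 10 was -0.019. The HET and HOM comparisons share the 8 WT libraries, so their values are not independent of each other. In HOM against HET, 0 of the 10 were called by edgeR, DESeq2 or voom, where edgeR called 0.0372% of all genes, and 1 gene, Atp6v1d at -0.051, had an unadjusted edgeR p under 0.05, where 8.54% of all genes lay. A slope over 0, 1 and 2 mutant alleles was called for 1 of the 10 genes, where 7.78% of all genes were called. This gene was again Atp6v0b, at 0.058 on the log2 scale per allele (SE 0.016, edgeR adjusted p = 0.0224), and this slope shares the HOM and WT libraries with the comparison above.

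**Figure D3:**
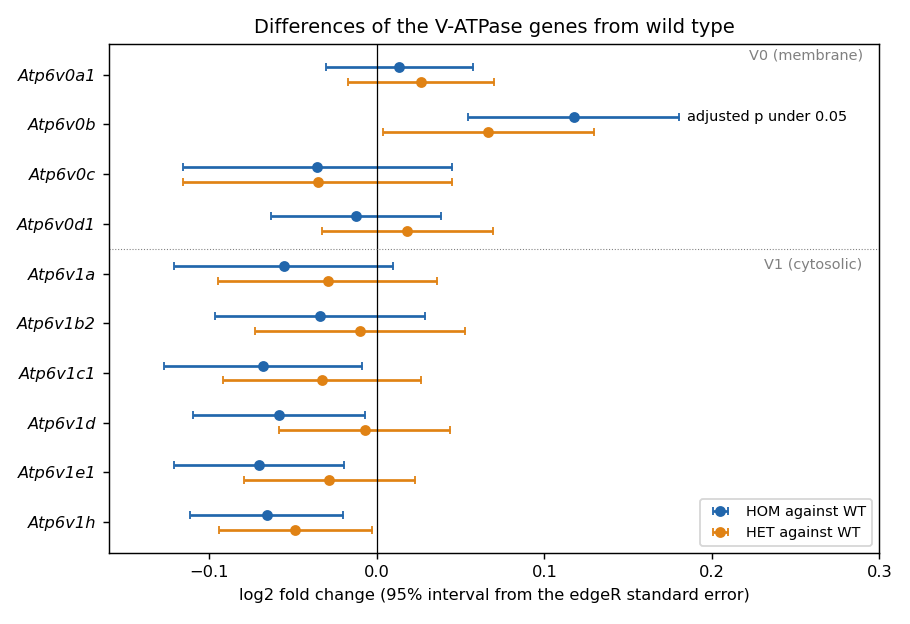
Log2 fold change of the 10 genes in HOM (blue) and HET (orange) against WT, with 95% intervals from the edgeR standard error; the dotted line parts V0 from V1 genes. In HOM the V1 genes lie between -0.07 and -0.034 and Atp6v0b at 0.12, the point that passed at an adjusted p of 0.0251.

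The sectors were also set against each other within each library, as the mean log2 CPM of the 6 V1 genes minus that of the 4 V0 genes. This difference was 0.224 ± 0.0357 in WT (SD, n = 8; 0.176 to 0.266), 0.179 ± 0.0534 in HET (SD, n = 10; 0.106 to 0.248) and 0.145 ± 0.0405 in HOM (SD, n = 10; 0.054 to 0.184). All 10 HOM libraries were below the WT mean and 8 were below the lowest WT library. Without Atp6v0b the difference was -0.0488 ± 0.0322 in WT (SD, n = 8) and -0.0952 ± 0.0387 in HOM (SD, n = 10). All 10 HOM libraries were still below the WT mean, but only 3 were below the lowest WT library. These are descriptions, and no test was made on them. They cover only the 10 genes, and the pump's other subunit genes did not all move the same way. In HOM the V1 genes Atp6v1f and Atp6v1g2 were 4.31% and 0.264% above WT. Atp6v1g1 and Atp6v1c2 were 2.31% and 0.582% below. The V0 gene Atp6v0e2 was 3.22% below, while Atp6v0a2, Tcirg1, Atp6v0a4 and Atp6v0e were 1.98% to 9.58% above, none passing. Of the remaining subunit genes tested, Atp6ap2 and Rnasek were 5.75% and 1.67% below and Atp6ap1 was 0.0507% above, also without passing. The summed level of the 10 genes ran from 3252 to 3487 CPM in WT, from 3218 to 3473 in HET and from 3009 to 3497 in HOM, so HOM libraries spread most at both ends.

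The 10 genes rose and fell together from library to library within a genotype. Over the 28 libraries, each taken as its deviation from its genotype mean in log2 CPM, the median Pearson r of the 45 pairs was 0.554 and 44 of them were above 0, while the median r of these genes with all other genes tested was -0.009. The 15 pairs within V1 had a median of 0.706 (0.622 to 0.889), the 24 pairs across the sectors 0.468 and the 6 pairs within V0 0.457. The closest pair was the catalytic Atp6v1a with Atp6v1c1 at 0.889, followed by Atp6v1a with Atp6v1b2 at 0.842. Atp6v1b2 followed the mean of the other 9 genes most closely (0.889) and Atp6v0b least (0.348), and Atp6v0b with Atp6v1c1 gave the lowest pair at -0.007. Such movement was not particular to these genes. Against the mean standardised deviation of the 10, the median r of single genes was 0.464 for the pump's other subunit genes. It was 0.469 for mitochondrial ATP synthase genes and 0.009 for all genes at 1 CPM or more. Among the other subunit genes at that level, r ran from -0.657 for Atp6v0e to 0.75 for Atp6ap1. The points share libraries, depth and scaling, so these values are descriptions.

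**Figure D4:**
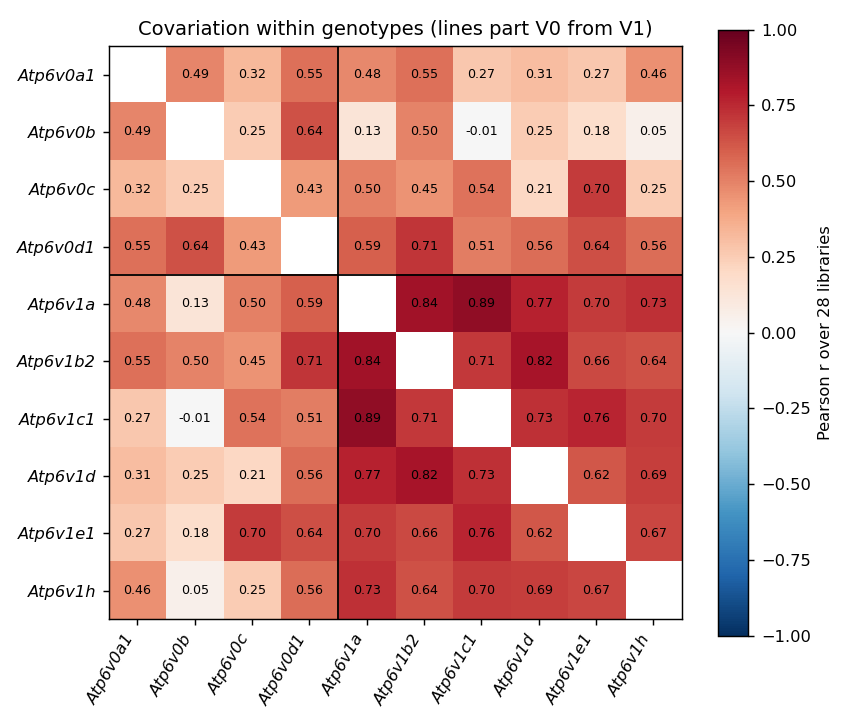
Pearson r of each pair of the 10 genes over 28 libraries, on log2 CPM deviations from genotype means, with V0 genes first and lines between the sectors. The V1 block (15 pairs, 0.622 to 0.889) is the most uniform, and the Atp6v0b row is the palest, down to -0.007.

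The shared movement of the 10 genes went with the neuron markers. The mean standardised deviation of the 10 had an r of 0.782 with the neuron marker score over 28 libraries, and 0.677 without HOM 1 and HOM 10. The single neuron markers were less uniform, with a median r of 0.455. They ran from -0.328 for Map2 and 0.09 for Rbfox3 up to 0.719 for Syt1. HOM 10 was the lowest HOM library for 8 of the 10 genes and had the lowest neuron marker sum of its group, and HOM 1 had the highest sum of both. HOM 10 also had the highest endothelial and mural sum and the highest microglial sum in HOM. The r was -0.644 with endothelial and mural markers, -0.505 with striatal neuron markers, -0.454 with microglial markers and -0.483 with the library total. The last was -0.231 without HOM 1 and HOM 2. When the neuron score was removed from each gene the median r of the 45 pairs was 0.332, and when the library total was removed it was 0.478. With the neuron score as a covariate in the HOM and WT fit, Atp6v0b kept its call, and Atp6v0d1 and Atp6v1b2 turned to 0.018 and 0.0097 on the log2 scale, both without passing.

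**Figure D5:**
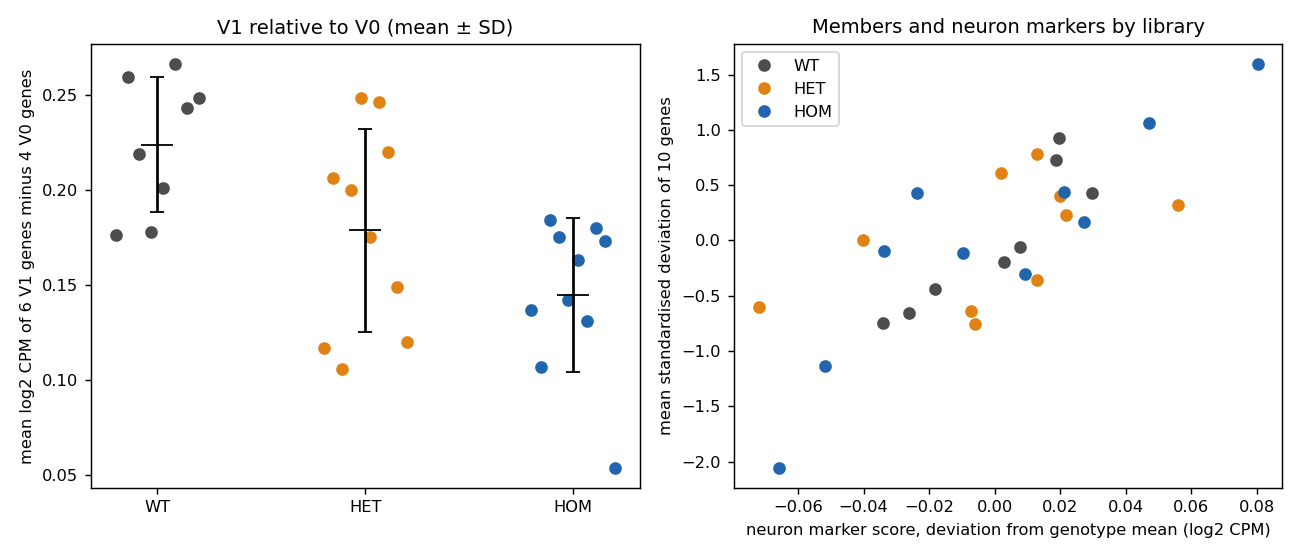
Left, mean log2 CPM of the 6 V1 genes minus the 4 V0 genes in each library, with the group mean and SD in black. Right, mean standardised deviation of the 10 genes against the neuron marker score as a deviation from the genotype mean, 1 point per library. On the left 8 of 10 HOM points are below the lowest WT point at 0.176, and on the right the points rise from lower left to upper right, with HOM 10 at -2.053 and HOM 1 at 1.594 at the ends.

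The 5 other genes that followed the 10 most closely, among 13913 genes at 1 CPM or more, were Ywhag (r = 0.903 over 28 libraries), Alg2 (0.894), Trim32 (0.886), Ckmt1 (0.874) and Nsf (0.869). Ywhag encodes a 14-3-3 adaptor protein and Nsf the ATPase that takes apart SNARE complexes after vesicle fusion. Alg2 is a mannosyltransferase of N-glycan assembly, Trim32 a ubiquitin ligase and Ckmt1 a mitochondrial creatine kinase. None of the 5 was called in HOM against WT, with log2 fold changes between -0.053 and -0.004.

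The pump's other subunit genes did not pass. Of 16 listed, 12 were tested, and 0 were called by edgeR, DESeq2 or voom in HOM against WT, where edgeR called 7.61% of all genes. An unadjusted edgeR p under 0.05 was found for 3 of the 12, near the share of 24.6% over all genes. The median log2 fold change of the 12 was 0.002. Atp6ap2, the accessory subunit also known as the prorenin receptor, was the nearest to the threshold at -0.085 (SE 0.031, edgeR adjusted p = 0.0811), with means of 277 ± 8.1 CPM (SD, n = 8) in WT and 6 of 10 HOM libraries below the lowest of them. The neuronal Atp6v1g2 had a log2 fold change of 0.0038 with a 95% interval of -0.069 to 0.077.

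Among 11 tested genes of assembly and regulation, 1 rose and 0 fell, where 7.61% of all genes were called, so the count is near the share over all genes. This was Rogdi, a partner of the rabconnectin proteins that promote assembly of the sectors. Rogdi lay between 81.4 and 89.7 CPM in WT with a median of 84.4, between 85.2 and 97.5 in HET with a median of 89.7, and between 88.7 and 111 in HOM with a median of 95. In HOM 9 of 10 libraries exceeded every WT library, and 1 lay within the WT range. Its log2 fold change was 0.17 (SE 0.036, edgeR adjusted p = 0.00364), and in HET it was 0.085 (edgeR adjusted p = 0.46). The call held without any 1 library, and with meningeal and vascular covariates the adjusted p was 0.0565. Gm42477, an antisense gene, covers 240 of its 2343 exon bases. The rabconnectin genes themselves did not pass, with Dmxl1 at 0.013, Dmxl2 at -0.025 and Wdr7 at -0.05.

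Transcripts of some proteins that work beside the pump passed the test in HOM against WT, where 3.9% of all genes were called higher and 3.71% lower. Of the 19 genes for Ragulator, the Rag GTPases and the lysosomal docking of mTORC1, a list that also holds the kinase and its regulators, 0 rose and 4 fell in HOM, and their median was -0.004. The 3 with the smallest p were the Rag GTPases Rragd at -0.24 (edgeR adjusted p = 6.97e-05), Rraga at -0.14 (edgeR adjusted p = 0.00956) and Rragb at -0.14 (edgeR adjusted p = 0.0338). Of 30 genes for lysosomal hydrolases and membrane proteins 6 rose and 0 fell, with a median of 0.031. Among them were Grn, which encodes progranulin, at 0.14 (edgeR adjusted p = 0.0235) and the protease gene Ctsz at 0.14 (edgeR adjusted p = 0.0368). Of 13 endolysosomal ion transport genes 1 rose and 2 fell. The one that rose was the sodium-proton exchanger gene Slc9a5 at 0.22, and 1 of those that fell was the chloride-proton exchanger gene Clcn5 at -0.18. Of 15 mitochondrial ATP synthase genes, which form the related rotary enzyme, 0 rose and 1 fell, Atp5l at -0.11, near the share over all genes. Of 7 vesicular transmitter transporter genes 0 passed by edgeR and 1 was called by DESeq2 and by voom. An unadjusted edgeR p under 0.05 was found for 5 of the 7, where 24.6% of all genes lay. The calls of Rragb, Grn, Ctsz, Slc9a5, Clcn5 and Atp5l were lost without WT 6, with edgeR adjusted p of 0.0596 to 0.0844. Of the 28 fits that each left out 1 library, the call was lost in 13 for Atp5l, 9 for Ctsz, 7 for Rragb, 7 for Slc9a5, 2 for Grn and 1 for Clcn5, while those of Rragd and Rraga held without any 1 library. Under the other processing choices the call was lost in 5 for each of Rragb, Slc9a5, Ctsz and Atp5l, 4 for Clcn5, 3 for Grn and 1 for Rraga. That of Rragd held in all 11. Exons of Grn, Ctsz and Atp5l overlap a gene on the other strand by 68, 10 and 133 bases. The increases in lysosomal genes stood beside the higher microglial marker sums given above, and the part of microglia in them was not tested.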

How the data were processed

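PolyA RNA of frontal cortex was sequenced in 28 libraries. Per the submitters' processing notes, Trim Galore 0.4.3, HISAT2 2.0.5 and GRCm38 were used. The values deposited by the authors are raw counts per gene, not normalised. How reads were counted, with which strand setting and which gene models, was not given in the sources used here, and reads of overlapping genes on opposite strands cannot be told apart. Rows of the same gene were summed (25965 rows, 25900 genes, 57 genes with several rows). Every pair of libraries differed beyond sampling noise (lowest chi-square per degree of freedom 6.39 over 378 pairs).

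Groups follow the genotype labels. The edgeR package, version 4.0.16 in R 4.3.3, was applied to the counts (filterByExpr, TMM scaling, robust quasi-likelihood F-test, two-sided, all 28 libraries in 1 fit), with Benjamini-Hochberg adjustment across the 16110 genes tested. A gene was called at an adjusted p under 0.05. CPM are TMM-scaled, and log2 CPM used a prior count of 2. Intervals are 95%, at 1.96 SE. Totals were 46.5 to 64.1 M counts in WT, 45.0 to 74.9 in HET and 30.5 to 62.6 in HOM. The procedure was tested on simulated data for HOM against WT, where 39 of 50 genes changed by a fold of 1.2 were recovered. There were 192 calls over all folds, of which 5 were false. Folds as small as those of the 10 genes, at most 1.085, were not simulated, so recovery at such sizes is not known. Lengths and exon overlaps came from the GRCm38 gene annotation, promoters from RefSeq.

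All 10 genes are named in every comparison; of the other pump lists, called genes and alternative isoform genes; of each further list, up to 3 called genes per direction with the smallest p; and the 5 genes most like the 10. Some genes this rule names are not reported here. The members and lists were chosen with earlier results of these data known. Of 199 listed genes, 9 matched by a reference name and 1 had no match. Alternatives used DESeq2 1.42.0, limma 3.58.1 (voom), other scalings, filters, libraries and covariates, and the replicate number as a block.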

Additional observations from a re-analysis of the deposited data

Results flagged for a closer look

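In each genotype the highest and lowest library of each gene was compared with its neighbour (Dixon's test, 36 groups of 8 or 10 libraries, of which chance flags about 1 in 20). For 3 of the 10 pump genes 1 HOM library stood apart. Atp6v0b was 192 CPM in HOM 1, where the next library was at 169. Atp6v0c was 455 CPM in HOM 2, where the next was at 375. Atp6v1c1 was 205 CPM in HOM 10, where the next was at 231. HOM 1 and HOM 2 are the shallowest libraries, and HOM 10 had the lowest neuron marker sum in HOM. Without HOM 2 or HOM 10 the log2 fold changes of Atp6v0c and Atp6v1c1 in HOM against WT stayed below 0 and did not pass.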

How the results depend on the processing

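In HOM against WT 1 of the 10 genes was called. The count was 3 by DESeq2 and 3 by voom (Atp6v0b, Atp6v1e1 and Atp6v1h), 0 with meningeal and vascular marker covariates, and 0 to 2 when 1 library was left out: 0 without WT 6, and 2 without WT 4, WT 5, HOM 1, HOM 2 or HOM 3. For the slope on allele number the count of 1 became 3 by DESeq2, 3 by voom, 2 without HOM 1 and HOM 2, 2 without WT 6 and HOM 3, 0 with the meningeal and vascular covariates, and 0 to 2 when 1 library was left out. In HET against WT and HOM against HET it was 0 under every alternative run. Over all genes, 1226 calls in HOM against WT became 737 with the replicate block, 509 without WT 6 and HOM 3, 95 with the meningeal and vascular covariates, 699 with the neuron covariate, and 595 (without WT 6) to 1345 when 1 library was left out (725 without WT 2). With the replicate block 1 of the 10 genes was called in HOM against WT, 0 in HET against WT, 0 in HOM against HET and 1 in the slope. The labels do not say whether the numbers pair the libraries. Same-numbered libraries had deviations with r from -0.164 to 0.183, 5 of 26 pairs were over 0.1, and 2 of 28 libraries correlated best with their own number. These values cannot settle it, since an r over many genes need not show a pairing that touches few of them.

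With the meningeal and vascular covariates the log2 fold change in HOM against WT turned to 0.027 for Atp6v0c, 0.037 for Atp6v0d1, 0.047 for Atp6v1a, 0.059 for Atp6v1b2, 0.017 for Atp6v1c1 and 0.001 for Atp6v1d, and with the neuron covariate to 0.018 for Atp6v0d1 and 0.0097 for Atp6v1b2. In HET against WT the meningeal and vascular covariates turned Atp6v0c to 0.0045, Atp6v1a to 0.035, Atp6v1b2 to 0.049, Atp6v1c1 to 0.022, Atp6v1d to 0.031 and Atp6v1e1 to 0.0089, and leaving out 1 library moved Atp6v1d between -0.0177 and 2e-04 (without HET 3). None of these values passed in either fit, and the cause was not tested. The median r of the 45 pairs was 0.566 with DESeq2 scaling, 0.587 without WT 6 and HOM 3, and 0.52 without HOM 1 and HOM 2. The covariate and block fits were run with edgeR, and the covariates are themselves measured in the same libraries.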
